A study of Mus musculus with 2 samples.

Results

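The mouse genes of the heat shock proteins and of their DnaJ co-chaperones were examined in Langerhans cells of mice with and without a working Il34 gene. The genes were selected by name: every heat shock protein gene of the HSP90, HSP70, HSP110, small heat shock protein and chaperonin families, and every gene of the Dnaja, Dnajb and Dnajc series, that had a probe set listing a single gene symbol. 5 genes of the endoplasmic reticulum, Hspa5, Hsp90b1, Dnajb9, Dnajb11 and Dnajc3, were left out by the same rule. This gave 65 of the 19937 genes measured, read by 87 probe sets. Where a gene had several probe sets, the probe set was chosen by its mean log2 level over both arrays, so a measured value chose which reading stands for a gene. The group was also put together with the differences of these same arrays known, so the size of its differences is a description and supports nothing about the group as such.

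Both samples are Langerhans cells, the antigen-presenting cells of the epidermis, of mice 8 to 12 weeks old. All animals had been given ultraviolet light for 30 min and were sampled 21 days later, and cells positive for both Langerin and Epcam were sorted. The Il34+/LacZ animals keep 1 intact copy of Il34 beside a LacZ allele, and the Il34LacZ/LacZ animals carry the LacZ allele on both copies, so the control also carries it. Keratinocytes make IL-34, a cytokine that Langerhans cells sense through the CSF1 receptor. There was 1 array for each genotype and no unexposed sample, and the labels do not say how many animals went into each. No difference below therefore has a replicate check, and no p-value is given. RNA of a sorted population cannot tell fewer cells of a type apart from less RNA per cell.

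HSP70 proteins bind and release unfolded stretches of other proteins in a cycle driven by ATP. DnaJ proteins bring clients to HSP70 and start its ATP hydrolysis, and HSP110 proteins exchange the spent nucleotide. HSP90 takes over partly folded clients such as kinases and receptors, HSP60 with HSP10 forms a folding chamber in mitochondria, and small heat shock proteins hold unfolded proteins without ATP. A part of these genes is switched on by heat shock factor 1, which binds repeats of the unit GAA in alternating orientation, called heat shock elements.

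Promoters of several members are shown first, to set the letters of a heat shock element beside genes whose values follow. The printed genes all read at least 1.5-fold lower in Il34LacZ/LacZ. Other members with a match did not, among them Dnaja4, Dnajc10, Hspb1, Hspb3, Hspb6 and Hspb8, and they are not printed. The choice of printed genes therefore shows no link between a match and a reading. The windows are RefSeq's (GRCm38.p6), 250 bases before to 50 bases after a gene's start, and 52 of the 65 members matched one. The search was for 2 inverted units, GAANNTTC or TTCNNGAA, and for 3 alternating units, GAANNTTCNNGAA or TTCNNGAANNTTC. Each pair reads the same on both strands, each of the 3-unit forms is the reverse complement of the other, and every 3-unit match contains matches to the pair. Capitals mark the units of each match. The first 3 lines are promoters with a 3-unit match somewhere in the window, and the other 3 have a single pair. Hsph1 has a pair 26 to 33 bases before its start (minus strand, chr5:149636337-149636436). Its 3-unit match, TTCtgGAAagTTC, lies 37 to 49 bases after the start (chr5:149636288-149636300), as counted from the more upstream of its listed starts. Hspe1 (plus strand, chr1:55088015-55088114) has 4 units in a row before its start, and the 3 farthest from it lie 77 to 89 bases before it. The window of Hspd1, read the other way, overlaps that of Hspe1 by 285 bases, so both genes hold the same match. Dnajb6 (plus strand, chr5:29735798-29735897) has 3 units 34 to 46 bases before its start. Hspa1a (minus strand, chr17:34972207-34972306) has a pair 97 to 104 bases before its start, Dnaja1 (plus strand, chr4:40722298-40722397) a pair at 117 to 124, and Dnajb4 (minus strand, chr3:152193846-152193945) a pair at 7 to 14.
Hsph1: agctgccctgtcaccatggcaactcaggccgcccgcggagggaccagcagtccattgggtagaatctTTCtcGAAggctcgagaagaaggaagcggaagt
Hspe1: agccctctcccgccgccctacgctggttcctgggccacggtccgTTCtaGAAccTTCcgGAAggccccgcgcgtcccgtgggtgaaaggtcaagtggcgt
Dnajb6: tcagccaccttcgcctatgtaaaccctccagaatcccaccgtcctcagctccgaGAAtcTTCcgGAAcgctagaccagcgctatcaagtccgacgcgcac
Hspa1a: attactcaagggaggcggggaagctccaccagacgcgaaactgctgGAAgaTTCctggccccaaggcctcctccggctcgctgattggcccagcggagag
Dnaja1: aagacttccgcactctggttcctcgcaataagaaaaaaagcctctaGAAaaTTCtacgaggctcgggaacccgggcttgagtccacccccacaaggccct
Dnajb4: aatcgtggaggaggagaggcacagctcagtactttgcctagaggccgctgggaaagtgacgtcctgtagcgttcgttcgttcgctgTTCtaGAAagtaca

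The 3-unit form was found for 4 of 52 members (7.69%), against 179 of 27025 genes of the promoter table (0.662%), or 0.603% of all windows. The pair was found for 15 of 52 members (28.8%), against 17.0% of all genes and 15.1% of all windows. Such a match describes the letters of a window and does not show binding.

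Levels are deposited intensities on a linear scale in arbitrary units, and of every pair of levels the first is Il34+/LacZ and the second Il34LacZ/LacZ. Differences are log2(intensity + 16) of Il34LacZ/LacZ minus Il34+/LacZ, so a negative value means a lower reading in Il34LacZ/LacZ. Folds on this scale are too small for dim genes. A gene counted as measurable when its higher array reached the floor of 48.7, which is the median of every deposited value. 57 of the 65 members did so, 46 of them on both arrays, 4 only in Il34+/LacZ and 7 only in Il34LacZ/LacZ. A member measurable on 1 array only was bound to differ in that direction. For such a member the floor stands in for the dim array, and the fold is written "at least". The other 8 members, Dnajb3, Dnajb7, Dnajc22, Dnajc27, Dnajc5b, Dnajc5g, Hspa12a and Hspb7, read between 8.9 and 40.9 on both arrays and got no fold. Hspb7 and Dnajc22, both at up to 40.9, lay just under the floor and Dnajc18, at up to 52.3, just above it.

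The arrays differ in a way that touches every value. Most well-read genes were lower in Il34LacZ/LacZ, with a median difference of -0.16 over the 12843 genes at or above the floor, and genes of middle and high level were lower than dim ones. Each difference is therefore also given with this trend removed, a smooth curve of the difference on the mean level that sets the typical gene of a level to 0. The sole error scale in the data is the disagreement between probe sets of 1 gene, an SD of 0.63 on the log2 scale, or 1.55-fold, over 614 genes. It was taken on differences as deposited. It does not measure how animals, sorts or arrays vary, so a difference beyond it is not thereby shown to be real. Il34 itself read 39.4 and 64.4 in Il34+/LacZ and Il34LacZ/LacZ, close to the floor, in cells that are not its main source, and so does not check the labels. Cd207, which encodes Langerin, read 3153.0 and 1852.0, Epcam 632.9 and 707.7, and the T cell gene Cd3g, of a lineage the sort was not aimed at, 1496.3 and 1635.3.

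Hsph1, Dnajb1, Dnaja1, Hspa9, Hspa1a, Hspd1, Dnajb4 and Hsp90aa1 read 2.51-fold to 7.10-fold lower in Il34LacZ/LacZ. The constitutive Hspa8 read 1.29-fold lower by the probe set that represents it, and up to 2.12-fold lower by its other probe sets (-0.70 as the mean of all 3). Dnaja1 was lower by both of its own probe sets, but turned to 0.50 with probe sets of several symbols also used. Among the 57 measurable members a gap of 1.5-fold or more was seen for 22 with the lower reading in Il34LacZ/LacZ (38.6%) and 2 with the higher (3.51%). Among all 12843 genes these shares were 28.1% and 9.34%. At 2-fold, 15 members (26.3%) were lower and none higher, against 12.0% and 1.66% of all genes. The HSP genes accounted for 11 of the 22 lower members among 21 measurable, and the DnaJ genes for 11 among 36, with medians of -0.60 and -0.21. The median of all measurable members was -0.44, and it was the same with the dim members at their bounds.

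With the trend removed the median of the members was -0.03, against 0.03 for all genes, so the group as a whole lay where genes of its level lay. Its members spread to both sides. Past 1.5-fold there were 15 lower (26.3%) and 7 higher (12.3%), against 18.5% and 13.9% of all genes. At 2-fold the counts were 10 lower (17.5%) and 1 higher, against 6.92% and 4.11% of all genes. 8 members were at least 2-fold lower by both measures, as were 556 of all 12843 genes (4.33%): Hsph1, Dnajb1, Dnaja1, Dnajb4, Hspa9, Hspa1a, Hspb11 and Dnajc21. Hspb11 and Dnajc21 were under the floor in Il34LacZ/LacZ, at 47.9 and 44.8.

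**Figure D1:**
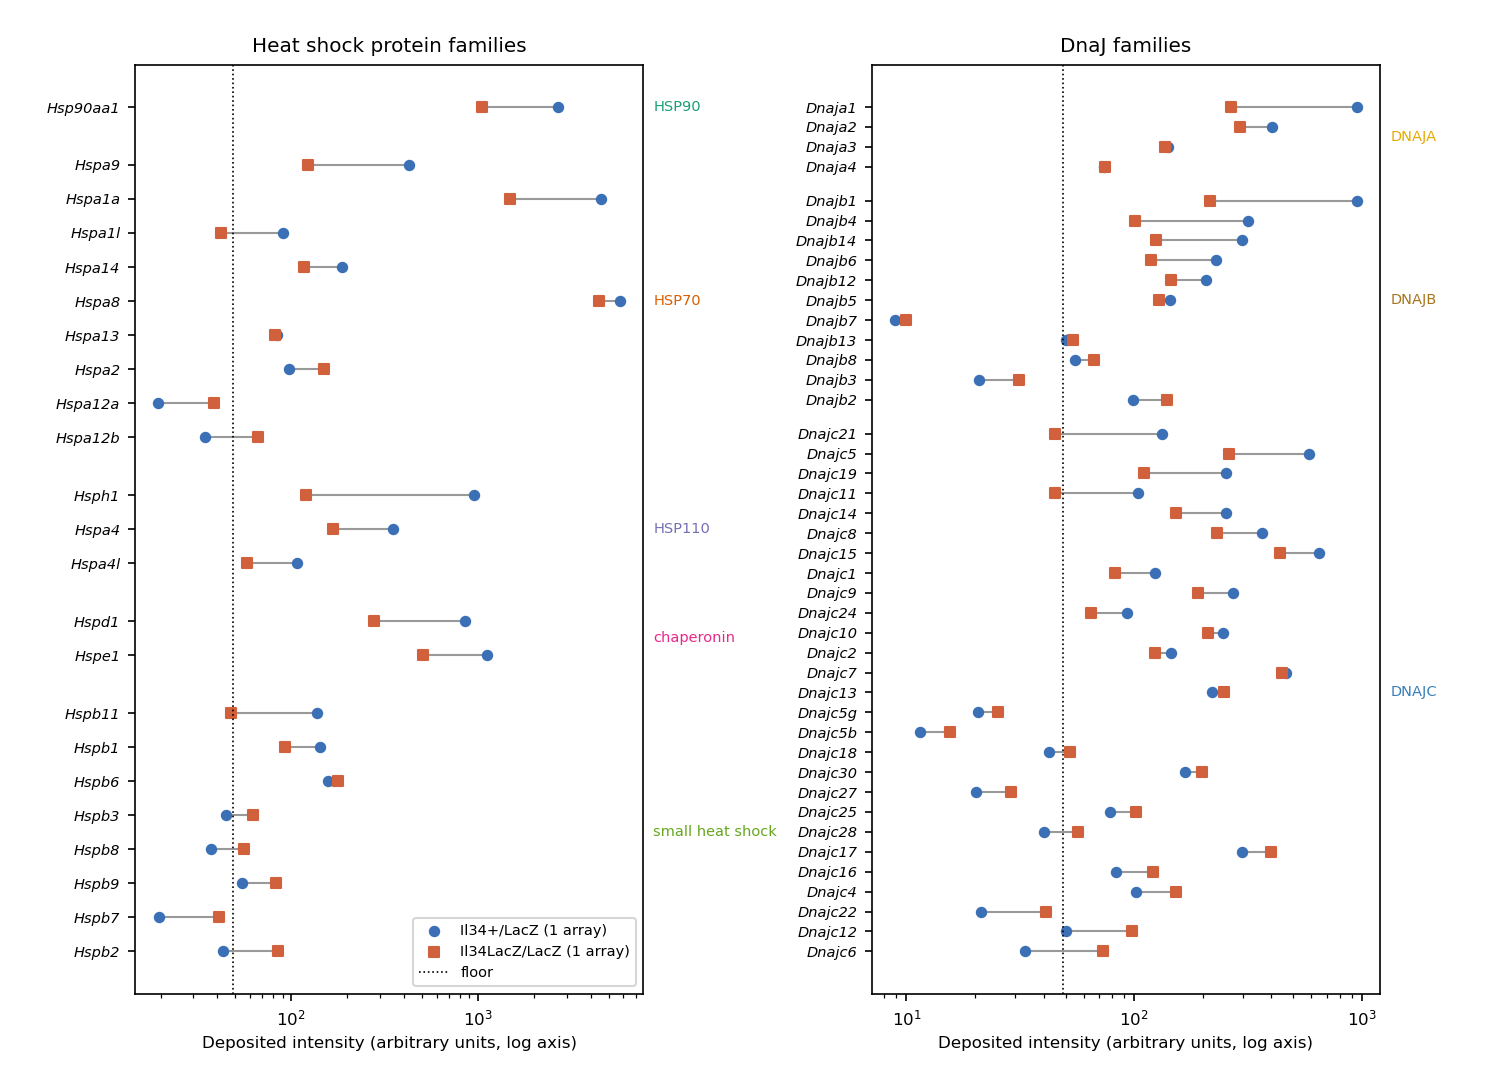
Deposited intensity of each of the 65 members on a log axis, with the Il34+/LacZ array as a blue circle, the Il34LacZ/LacZ array as a red square and the floor of 48.7 as a dotted line. The widest gaps are those of Hsph1 (949.8 and 120.0), Dnajb1 (949.6 and 214.6) and Dnaja1 (949.1 and 266.9). The 12 members with a mean level below 48.7 all run the other way, as does the median of all 8462 genes of that level (0.22).

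The HSP110 exchange factors all read lower. Hsph1, which encodes HSP105 and is induced by heat, read 949.8 and 120.0. This was 7.10-fold lower, with a difference of -2.83, or -2.22 with the trend removed, and it was the 9th lowest difference of the 12843 genes, or the 25th lowest with the trend removed. Hspa4 read 352.8 and 167.0, or 2.02-fold lower, and Hspa4l 107.3 and 58.3, or 1.66-fold lower. With the trend removed Hspa4 differed by -0.46, inside the probe set SD, and Hspa4l by -0.79. The 3 genes run in 1 direction but differ widely in size, and Hsph1 stands apart from its 2 relatives.

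The HSP70 genes were split. Hspa1a, the heat-inducible HSP70 of the cytosol, read 4549.6 and 1485.2. This was 3.04-fold lower, and -1.14 with the trend removed. Its copy Hspa1b is nearly identical and is read together with Hspa1a by a shared probe set, which gave 5448.9 and 1797.5, or 3.01-fold lower, so both cannot be told apart. Hspa9, the mitochondrial HSP70 that pulls proteins through the inner membrane, read 429.3 and 123.5, or 3.19-fold lower, and -1.13 with the trend removed.

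Hspa8, the HSP70 made at all times, read 5757.4 and 4447.6, -0.37 apart, or 0.02 with the trend removed, by the least lowered of its probe sets. The other HSP70 genes were dimmer. Hspa14, a ribosome-associated HSP70, read 186.5 and 117.7, or 1.51-fold lower, but -0.23 with the trend removed. Hspa1l, best known from testis, read 90.6 and 42.3 and was at least 1.65-fold lower. Hspa13, an HSP70-like protein of microsomes, read 83.6 and 82.3. Hspa2, also of testis, ran the other way at 97.5 and 149.8, 1.46-fold higher and 0.80 with the trend removed, and the distant relative Hspa12b read 34.4 and 66.7, at least 1.28-fold higher. Of the 8 measurable HSP70 genes, 4 were at least 1.5-fold lower and none higher, and the trend-removed counts were 3 lower and 1 higher.

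Hsp90aa1, the inducible cytosolic HSP90, was the single HSP90 gene of the group. It read 2677.2 and 1055.3, or 2.51-fold lower, and -0.82 with the trend removed. The mitochondrial chaperonin genes Hspd1, for HSP60, and Hspe1, for its lid HSP10, read 854.0 and 278.1, and 1118.2 and 510.4, or 2.96-fold and 2.15-fold lower. With the trend removed Hspd1 differed by -0.94, beyond the probe set SD, and Hspe1 by -0.50, inside it. Both genes of the chamber were thus lower as deposited. Relative to genes of its level, Hspd1 lay beyond the probe set SD by this probe set only. Its other probe set gave -0.61 with the trend removed, inside the SD, and the other probe set of Hspe1 gave -0.15.

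Small heat shock genes were mostly dim. Of 7 measurable genes, 5 read higher in Il34LacZ/LacZ and 2 lower, but 3 of the 5, Hspb2, Hspb3 and Hspb8, reached the floor only in Il34LacZ/LacZ and Hspb11 only in Il34+/LacZ, which fixed their directions. The median of 0.36 was 0.16 with dim genes at their bounds and 0.11 with the trend removed, and it turned to -0.54 over the 3 genes left with the floor at the 75th percentile, so the family has no settled direction. Hspb1, which encodes HSP25 and is abundant in epidermis, read 142.7 and 92.9, a difference of -0.54 inside the probe set SD. Hspb11, which shares the name but works in transport along cilia, read 137.5 and 47.9 and was at least 2.37-fold lower. Hspb2, a muscle gene, read 43.4 and 85.3 and was at least 1.56-fold higher. Hspb6 read 158.0 and 177.9, a gap of 1.11-fold, and Hspb3, Hspb8 and Hspb9 read no higher than 83.0 on either array.

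**Figure D2:**
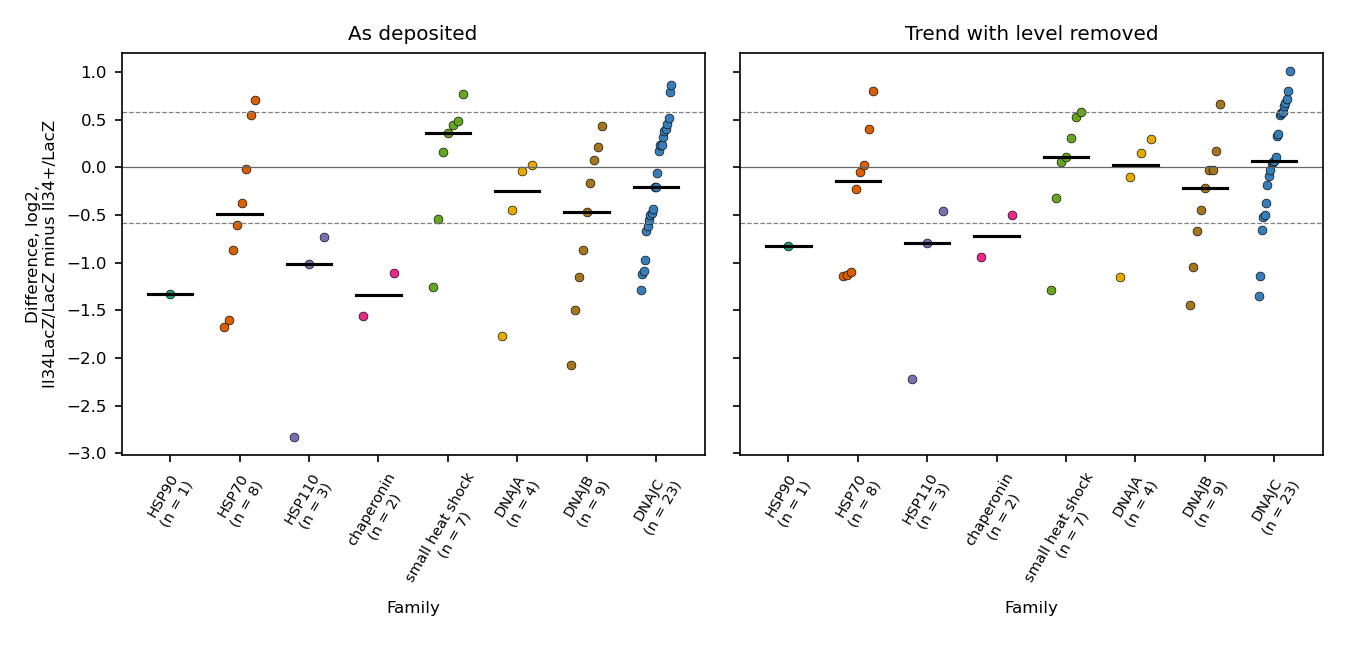
Difference of each measurable member by family on the log2 scale, as deposited (left) and with the trend on level removed (right); points are genes, thick bars medians, and dashed lines 1.5-fold. The HSP110, HSP90 and chaperonin genes lie below 0 in both panels, while the DNAJC median moves from -0.21 to 0.07.

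Among the DNAJA and DNAJB genes, Dnajb1, Dnaja1 and Dnajb4 had the lowest differences. Dnajb1, which encodes HSP40, read 949.6 and 214.6, or 4.19-fold lower, with a difference of -2.07, or -1.44 with the trend removed. Dnaja1 read 949.1 and 266.9, or 3.41-fold lower, and -1.15 with the trend removed. Dnajb4, a close relative of Dnajb1, read 315.0 and 100.7, or 2.84-fold lower, and -1.05 with the trend removed. These were the 66th, 165th and 374th lowest differences of the 12843 genes.

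Other genes of both series differed less. Dnaja2, another cytosolic type I gene, read 403.9 and 290.7, -0.45 apart, or 0.15 with the trend removed, and the mitochondrial Dnaja3 read 141.1 and 136.5. Dnaja4 read 73.6 and 74.7. Dnajb14 and Dnajb12, both in the membrane of the endoplasmic reticulum, read 296.7 and 125.2, or 2.21-fold lower, and 207.4 and 144.9, or 1.39-fold lower. Dnajb6, which keeps proteins from aggregating, read 229.5 and 118.0, or 1.83-fold lower, but -0.45 with the trend removed. Dnajb2 read 98.9 and 138.7, 1.35-fold higher and 0.67 with the trend removed. Dnajb5, at 144.1 and 127.8, and the dim Dnajb8 and Dnajb13, at 50.2 to 66.4, lay within 1.16-fold. Of 9 measurable DNAJB genes, 4 were at least 1.5-fold lower (44.4%) and none higher, and of 4 DNAJA genes 1 was lower (25.0%). Among all genes 28.1% were lower and 9.34% higher.

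The DNAJC genes, which are tied to particular tasks and compartments, ran both ways. Of 23 measurable genes, 6 were lower by 1.5-fold or more and 1 was higher as deposited, whereas with the trend removed 3 were lower and 5 higher. Those lower by both measures were Dnajc21, a factor of ribosome assembly (132.1 and 44.8, at least 2.29-fold), Dnajc19, of the mitochondrial import motor (252.6 and 110.5, 2.12-fold), and Dnajc11, of the mitochondrial inner membrane scaffold (103.4 and 44.9, at least 1.84-fold). Dnajc21 and Dnajc11 reached the floor only in Il34+/LacZ, which fixed their direction. Dnajc5, the cysteine string protein of secretory vesicles, read 582.8 and 259.8, or 2.17-fold lower, and -0.50 with the trend removed. Dnajc8, a splicing factor partner, read 362.6 and 231.5, and Dnajc14 252.1 and 152.2, and both lay within the probe set SD once the trend was removed.

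Several DNAJC genes lay above genes of their level. Dnajc17, linked to splicing, read 298.7 and 400.3, 0.40 apart, or 1.01 with the trend removed. Dnajc4 read 101.5 and 152.5 (0.80 with the trend removed), the mitochondrial Dnajc30 167.1 and 198.1 (0.68), and Dnajc12, just above the floor in Il34+/LacZ, 97.9 in Il34LacZ/LacZ (0.64), the last of them 1.72-fold higher as deposited. Dnajc13, at 219.0 and 249.0 (0.72), was also past 1.5-fold with the trend removed, but by the highest of its 15 probe sets. The median difference of those 15 as deposited was -0.50. Dnajc7, which binds both HSP70 and HSP90, read 463.7 and 445.5, -0.06 apart, or 0.57 with the trend removed, short of 1.5-fold. Of the rest, Dnajc15 (645.4 and 434.8), the histone chaperone Dnajc9 (272.0 and 190.0), Dnajc10 (244.5 and 209.8), which reduces disulphides in the endoplasmic reticulum, the ribosome-bound Dnajc2 (145.1 and 123.6), Dnajc1 (123.3 and 82.4) and Dnajc24 (93.2 and 64.6) read lower by under 1.5-fold. Dnajc16 and Dnajc25 read 1.37-fold and 1.25-fold higher, and Dnajc6, Dnajc18 and Dnajc28, which reached the floor only in Il34LacZ/LacZ, at least 1.38-fold, 1.06-fold and 1.13-fold higher.

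The direction depended on the level of a member. The 13 members above 400 in Il34+/LacZ were all lower in Il34LacZ/LacZ, 9 of them at least 2-fold, though a selection on 1 of the compared arrays favours that direction. Classed instead by the mean level of both arrays, the 6 members between 400 and 800 had a median of -1.34, against -0.64 for the 806 genes of that class, and the 3 above 800 had -1.33 against -0.46. The 10 members between 200 and 400 had -0.55 against -0.61, and the 18 between 100 and 200 had -0.34 against -0.36. In the class from 48.7 to 100 the 16 members had 0.05 against 0.20. Below 48.7 the 12 members had 0.37 against 0.22 for 8462 genes, so dim genes in general read higher in Il34LacZ/LacZ. In the 2 upper classes 4 of 6 and 2 of 3 members lay below the median gene of their class, and in the next 2 classes 5 of 10 and 9 of 18 did.

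**Figure D3:**
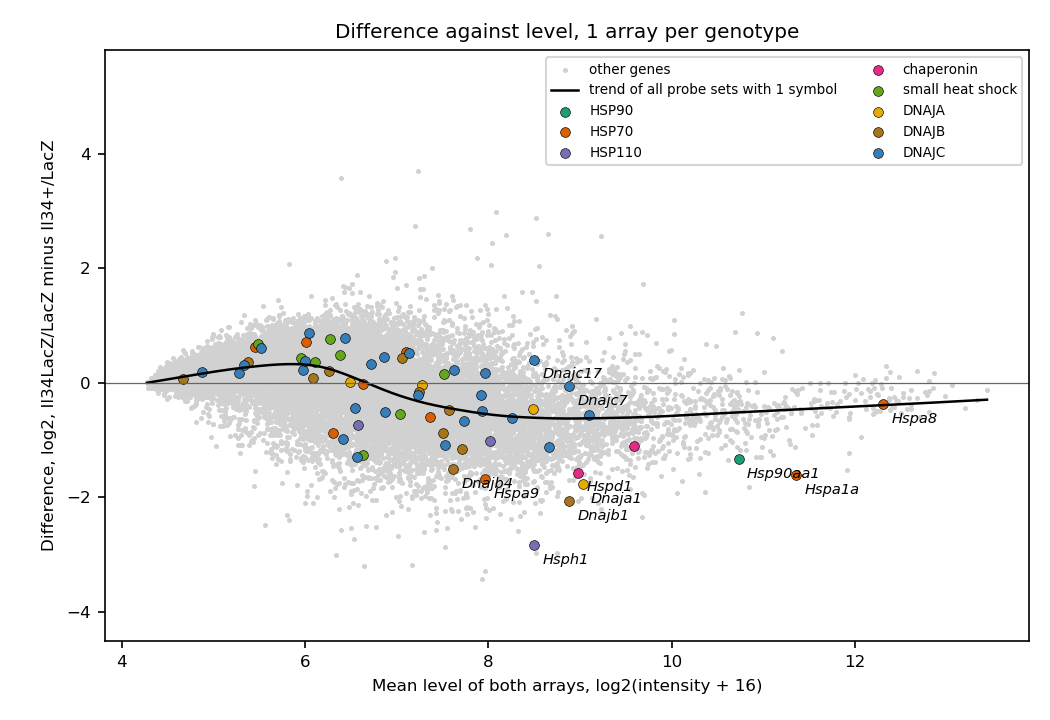
Difference between the arrays against the mean level of both, both on the log2 scale, for all 19937 genes (grey) and the 65 members (coloured by family), with the trend as a black line. Hsph1, at a difference of -2.83, lies farthest below the line among the members, Hspa8 lies on it, and Dnajc17 lies above it.

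Genes on a list of heat-inducible members made up 9 of the 22 members that were at least 1.5-fold lower, and 8 of the 15 at least 2-fold lower. Of the 14 genes on this list, 12 were measured, and Hsp90ab1 and Hspa1b have no reading of their own here. The 12 had a median of -1.42, and none was at least 1.5-fold higher. With the trend removed the median was -0.88 and 8 were lower. The remaining 45 measurable members had a median of -0.06, with 13 lower and 2 higher, or 0.06 with the trend removed, with 7 lower and 7 higher. The exceptions on the list were Hspb1, Hspb8, which read 37.2 and 56.0, and Hspa8 by the probe set that represents it. As the mean of its own probe sets Hspa8 was at -0.70, past 1.5-fold. This list was made with the differences of these arrays known.

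The 4 members with a 3-unit heat shock element, whose promoters are printed above or overlap one that is, were at least 1.5-fold lower as deposited: Hsph1 by 7.10-fold, Hspd1 by 2.96-fold, Hspe1 by 2.15-fold and Dnajb6 by 1.83-fold. With the trend removed Hsph1 (-2.22) and Hspd1 (-0.94) stayed past 1.5-fold, and Hspe1 (-0.50) and Dnajb6 (-0.45) did not. Dnajb6 turned to 0.33 with probe sets of several symbols also used, and Hspd1 and Hspe1 share 1 element. The 13 measurable members with at least a pair had a median of -0.87 (-0.45 with the trend removed), from -2.83 to 0.44, and 7 were at least 1.5-fold lower. The 33 with no match had a median of -0.44 (0.05 with the trend removed), and 11 were lower. These 33 include Dnajb1 at -2.07. Of all 12843 genes, 28.1% passed 1.5-fold downward. Members without a promoter window, among them Hsp90aa1, Hspa8 and Hspa9, are in neither group. Whether a match goes with a lower reading was not tested.

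Readings of a gene by different probe sets mostly pointed the same way. The 3 probe sets of Hsp90aa1 gave 2677.2 and 1055.3, 2257.8 and 658.3, and 536.4 and 184.3, or 2.51-fold to 3.37-fold lower. Both of Hspd1 were lower, by 2.35-fold and 2.96-fold, as were both of Hspe1, by 1.67-fold and 2.15-fold, and both of Dnaja1, by 3.08-fold and 3.41-fold. Those of Hspb1 were lower by 1.46-fold and 1.12-fold. Hspa8 was less even, with 1.29-fold, 1.55-fold and 2.12-fold lower. Many of these genes have near-identical processed copies in the genome, so which copy each probe set reads is uncertain. The 15 probe sets of Dnajc13, an endosomal DnaJ protein, ran from -1.61 to 0.17, 13 of them lower. The probe set that represents the gene, at 219.0 and 249.0, gave the highest of the 15 differences, and the median of all was -0.50.

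Probe sets shared with another gene disagreed in part. A probe set listed for Dnaja1 and Mir207 read 1151.1 and 1629.6, or 1.41-fold higher. The 3 listed for Dnajb6 and Gm4247 lay between -0.15 and 0.33, in contrast to -0.87 for the probe set of Dnajb6 alone. Of 2 listed for Dnajb14 and Pin4, 1 was 2.31-fold lower and the other 1.06-fold. The 2 listed for Hspa8 and the small nucleolar genes Snord14c and Snord14d were 2.65-fold and 2.85-fold lower. Dnajb6 therefore has no single direction across probe sets. Hspa8 and Dnajb14 read lower by every probe set as deposited, but by unlike amounts. For Dnaja1 the 2 probe sets of its own stand against 1 that is shared.

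**Figure D4:**
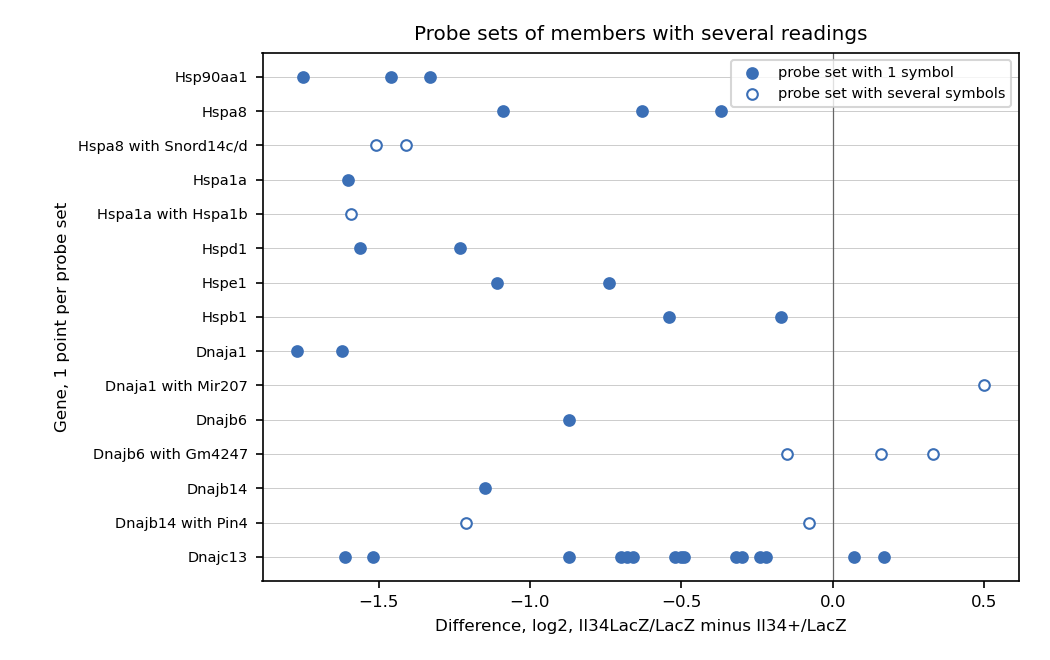
Difference (log2) of each probe set of the members with more than 1 reading, 1 point per probe set; filled points list a single gene, open points list several. All filled points lie below 0 except 2 of Dnajc13, and 3 open points, of Dnaja1 and Dnajb6, lie above it.

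Partner genes of the chaperones, taken from lists written with earlier results of these arrays known, are given next, and their counts stand beside the 28.1% of all genes that were at least 1.5-fold lower and the 9.34% that were higher. HSP90 co-chaperones select clients and time the HSP90 cycle: 4 of 18 measurable genes (22.2%) passed 1.5-fold downward and 1 upward, and the median was -0.46, or 0.02 with the trend removed. Tomm34, which links both chaperones to mitochondrial import, read 283.0 and 70.0, or 3.47-fold lower, and Chordc1 78.2 and 27.5, at least 1.46-fold lower. Fkbp5, a glucocorticoid-induced HSP90 partner, read 101.4 and 176.5, or 1.64-fold higher. HSP70 co-chaperones had 4 of 12 (33.3%) past 1.5-fold downward and 1 upward, and a median of -0.44, or -0.12 with the trend removed. The ubiquitin ligase Stub1 read 186.1 and 100.7, or 1.73-fold lower, and Hscb 77.9 and 31.3, at least 1.45-fold lower. The exchange factor Hspbp1 read 99.2 and 158.7, or 1.52-fold higher.

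The cytosolic chaperonin, which folds actin and tubulin, and its feeder prefoldin had 8 of 14 genes (57.1%) past 1.5-fold downward and none upward, and a median of -0.67, or -0.10 with the trend removed. Cct7 read 647.4 and 141.8, or 4.20-fold lower, and Tcp1 414.5 and 119.1, or 3.19-fold lower. Both remained beyond the probe set SD with the trend removed, at -1.48 and -1.14, and the prefoldin gene Pfdn2, at 693.6 and 739.9, was 0.70 there. Mitochondrial partners of Hspa9 and Hspd1 had 5 of 10 lower and none higher, with a median of -0.70, or -0.57 with the trend removed. They were led by Timm17a, a channel subunit of the inner membrane, at 768.7 and 114.6, or 6.01-fold lower, and by Trap1, the mitochondrial HSP90, at 404.6 and 95.4, or 3.78-fold lower. Clpb, a disaggregase, and the protease subunit Clpp were higher by 1.13-fold and 1.10-fold.

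Heat shock factors were dim. Hsf2 read 54.3 and 23.9, at least 1.09-fold lower, and Hsf4 51.6 and 85.8, or 1.51-fold higher. Hsbp1, a small protein that binds heat shock factor 1, read 1008.7 and 932.3, and Hspbap1 46.8 and 59.7. Hsf1 was not analysed here. Of 8 other stress genes, 3 were at least 1.5-fold lower and none with the trend removed: Gadd45b, a stress-induced growth arrest gene, read 1295.7 and 569.3, or 2.24-fold lower, and Ddit3, which encodes CHOP, 443.2 and 256.3, or 1.69-fold lower. The highest were Serpinh1, a collagen chaperone, and Cryab, a small heat shock protein outside the naming rule, at 42.2 and 71.7 and at 40.0 and 55.4. The 5 chaperone genes of the endoplasmic reticulum were all at least 1.5-fold lower, with a median of -1.07, or -0.49 with the trend removed, where 1 remained, Hspa5, at 1992.5 and 854.1.

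Markers of other cells differed between the same arrays. Counts past 1.5-fold for these markers and for the immediate early genes stand beside 28.1% of all genes lower and 9.34% higher. Keratinocytes are the main cells around Langerhans cells in the epidermis. Of 15 measurable keratinocyte markers of 18, 10 passed 1.5-fold downward and none upward, and the median was -0.96, or -1.04 with the trend removed. Their summed intensity was 5717.1 in Il34+/LacZ and 1437.5 in Il34LacZ/LacZ, against 26749.2 and 15296.6 for the 65 members. Krt14 and Ly6d had the widest gaps, at 787.4 and 58.6 and at 764.6 and 64.2. No marker was at 0, and Ivl, Lor and Dsg3 stayed below the floor on both arrays. Krt17 read 33.4 and 61.7 and Sbsn 106.1 and 114.5.

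Immediate early genes, which cells switch on within minutes of a stimulus, read far above the floor on both arrays. Of 16, 7 passed 1.5-fold downward and none upward, with a median of -0.51, or -0.02 with the trend removed, and a summed intensity of 48696.5 and 33008.7. Jun read 3808.4 and 1740.4, or 2.18-fold lower, Atf3 5919.9 and 3083.6, or 1.92-fold lower, and Klf2 482.8 and 490.1. Monocyte and macrophage markers ran the other way, with 4 of 11 measured of 13 listed past 1.5-fold upward and 2 downward, and a summed intensity of 4517.2 and 5901.1. Pf4, at 148.1 and 975.3, and Ms4a7, at 64.8 and 270.0, were the most higher, and Adgre1, at 281.0 and 144.6, and Lyz2, at 958.4 and 573.3, the lower.

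Of 6 measurable neutrophil markers of 8, 3 were higher and 1 lower, with sums of 691.7 and 1693.9. S100a8 read 71.9 and 552.1, S100a9 103.2 and 698.6, and Mmp9 380.2 and 190.9. The 5 T cell markers measured of 8, with sums of 7054.4 and 6225.2, had none 1.5-fold apart, with Cd3d at 743.9 and 537.3. Of 3 measurable fibroblast markers of 6, 2 were higher, Col1a2 (55.2 and 107.4) and Col3a1 (49.7 and 91.0), and the 6 summed to 247.5 and 395.5. None of these markers was at 0. The 10 Langerhans cell markers had a median of -0.51, with 4 at least 1.5-fold lower (40.0%) and none higher, and Cdh1 read 1932.0 and 1079.7. With the trend removed their median was -0.03, with none at least 1.5-fold lower and 1 higher. The part of these other cells and of the immediate early response in the lower heat shock readings was not tested, and with 1 array per genotype the genotype cannot be told apart from the animal, the sort or the array.

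**Figure D5:**
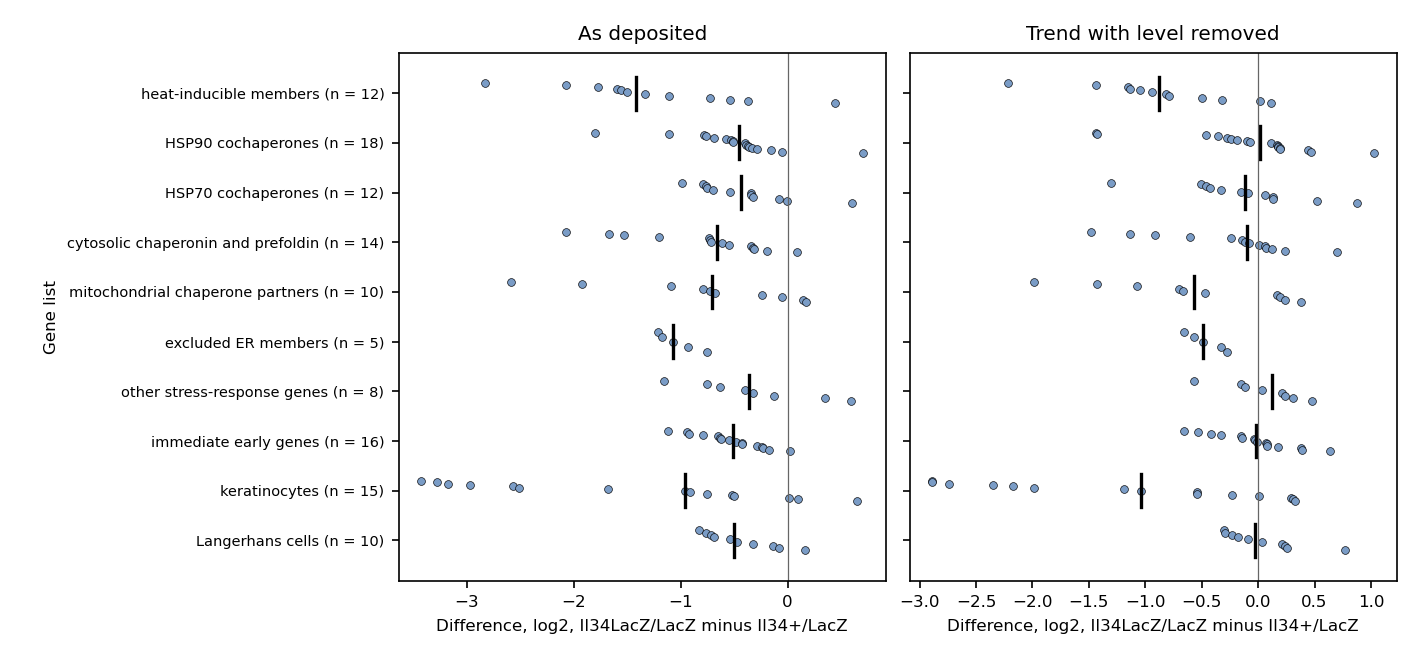
Difference (log2) of each measurable gene of 10 lists, as deposited (left) and with the trend on level removed (right); points are genes and thick bars medians. The heat-inducible members keep a median of -0.88 in the right panel and the keratinocyte markers -1.04, whereas the HSP90 co-chaperones, immediate early genes and Langerhans cell markers lie around 0 there.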

How the data were processed

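The values deposited are intensities on a linear scale, as their range shows, for 34760 probe sets of an Affymetrix mouse whole-transcript gene array. How the authors summarised, background-corrected and scaled the probes is not stated in the labels or file. Per the labels' protocols, labelling with biotin started from 2 ng of RNA. Platform annotation gave 21640 probe sets 1 symbol, 1321 several and 11799 none. The RefSeq gene table (GRCm38.p6) held the gene number and symbol of all 65 members.

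Values were analysed as log2(intensity + 16), with the floor at the median. The trend was a lowess curve (fraction 0.3) on probe sets with 1 symbol. As-deposited counts use the bound for arrays below the floor, and trend-removed counts the measured difference. The number of arrays, 1 per genotype, limits the precision. All measurable members could be named; of each list, up to 2 genes lower and 2 higher, by size of difference, and Il34, were named. The 3 keratinocyte markers below the floor were named after their values were seen. Members, lists and alternatives were chosen with earlier results of these arrays known. Protein sequence features, planned at the start, were not analysed here. The scripts were tested on simulated data. Alternatives changed the floor, pseudocount, scaling and probe set rule. The tools were statsmodels 0.14.6, pandas 2.3.3, numpy 2.4.6, scipy 1.17.1 and matplotlib 3.10.9 under Python 3.11.15.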

Additional observations from a re-analysis of the deposited data

How the results depend on the processing

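The median difference of the members was -0.44 and stayed negative in all 11 alternatives, but its size followed the scaling and the genes kept. It was -0.60 with the floor at the 75th percentile, -0.16 with no floor, -0.59 with each array centred on its median, -0.06 after quantile normalization, -0.03 with the trend removed at either smoothing fraction (0.3 or 0.6), and -0.21 with probe sets of several symbols also used. All genes moved too, from a median of -0.16 to -0.54 with the raised floor, 0.09 with no floor, -0.30 with centred arrays, and 0.03 after quantile normalization or with the trend removed at fraction 0.3. The count of members at least 1.5-fold lower, 22, ran from 15 to 29. Those at least 1.5-fold higher, 2, became 0 with the raised floor or a pseudocount of 64, 1 with centred arrays, 4 with a pseudocount of 1, 7 with no floor, 9 after quantile normalization, and 7 or 9 with the trend removed at fraction 0.3 or 0.6. Counted on the measured difference and not the bound, an alternative added after seeing the data, there were 4. Those at least 2-fold lower, 15, became 9 with a pseudocount of 64, after quantile normalization, and with the trend removed at fraction 0.6. With probe sets of several symbols also used, 2 genes changed sign, Dnaja1 to 0.50 and Dnajb6 to 0.33. In that setting a brighter probe set, shared with Mir207 for Dnaja1 and with Gm4247 for Dnajb6, stood for the gene. Which gene those probe sets read was not tested. Hsph1 was lower by 2.22 to 2.98 and Dnajb1 by 1.44 to 2.22 on the log2 scale over all settings. With no detection calls, signal over background was not known, so values near the floor have no order. No paired analysis was possible because each genotype has 1 array.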
